A study of Mus musculus with 4 samples.

Results

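The 8 genes described here encode the DNA methyltransferases Dnmt1, Dnmt3a and Dnmt3b, the Dnmt1 partner Uhrf1, and the methyl-CpG binding domain proteins Mbd1, Mbd2, Mbd3 and Mbd4. They were taken by gene symbol from the deposited expression table, and all 8 were found among its 16673 genes. The RNA came from Lin– (lineage-negative) marrow, which is bone marrow depleted of mature blood cells, of mice aged 2 months. The 2 cKO mice carried the floxed Tet3 alleles together with Cre under Tie2 (Tie2+/cre; Tet3F/F), and the 2 control mice carried the floxed alleles alone (Tet3F/F). Both groups therefore carry floxed Tet3. Tie2 expression marks endothelium and early blood progenitors, so the Cre is not restricted to one blood lineage, and the sources used here do not name the floxed Tet3 exons.

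DNA methylation is copied after replication by DNMT1, which UHRF1 brings to half-methylated CpG sites on newly made DNA. DNMT3A and DNMT3B place methyl groups on unmethylated DNA, and DNMT3A is known as a regulator of blood stem cell differentiation. The MBD proteins act at the other end: MBD1 and MBD2 bind methylated CpG and recruit repressors, MBD2 and MBD3 are alternative subunits of the nucleosome remodelling and deacetylase complex (NuRD), and MBD4 is a glycosylase that removes thymine from G:T mismatches left when methylated cytosine deaminates. TET3, the enzyme targeted in these mice, oxidises the methylated cytosine that these genes write and read. The comparison asks whether transcripts of the writing and reading machinery differed where Tet3 was targeted.

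Levels are normalized counts, gene reads scaled by one size factor per library. Reads counted to genes totalled 28845037 and 30020188 in cKO replicates 1 and 2 and 39199593 and 46673855 in control replicates 1 and 2. Tet3 itself had 6400 and 5084 normalized counts in the cKO libraries, against 5056 and 6593 in the control libraries, which overlap. A whole-gene count includes exons outside the floxed part, so this checks neither genotype nor labels. The Y-linked genes Uty, Kdm5d, Eif2s3y and Ddx3y had 0 reads in both cKO libraries and between 769 and 4313 normalized counts in the control libraries, and Xist had 87442 and 48951 in the cKO libraries against 5.54 and 9.57 in the control libraries. Genotype and sex therefore cannot be told apart in any difference below. One library, control replicate 2, was unlike the rest, at 96.2 on a first principal component on which they lay between -43.25 and -10.92. In it 8.21% of reads came from mitochondrially encoded genes (Wilson 95% interval 8.198 to 8.214, counting error only), against 0.993% to 1.27% in the others. The progenitor genes Cd34 (13170 and 13116 in cKO, 11733 and 8599 in control) and Flt3 (7456 and 6339 in cKO, 5052 and 4999 in control) were present in all 4 libraries. Erythroid, granulocyte and B cell markers, given below, were present too, so this does not check how far mature cells were depleted. In bulk RNA, fewer cells of a type and less RNA per cell cannot be told apart.

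None of the 8 genes passed the test. Over the whole table, 12 of 16598 genes tested did (0.0723%), in limma's test on log2(normalized count + 1) with Benjamini-Hochberg adjustment over all genes and a threshold of 0.05. Fold changes are cKO minus control on that scale, with standard errors (SE) and 95% intervals from the same fit. The members' adjusted p-values lay between 0.77 and 0.91, and 0 of 8 had an unadjusted p under 0.05, against 6.1% of all genes tested. By edgeR and by DESeq2 on recovered whole reads, 0 of 8 passed as well, where 0.0723% and 0.645% of all genes tested did. With 2 mice per group an exact permutation test of a single gene cannot go below 0.33. A missed threshold does not show that levels were alike, so the interval of each difference is given.

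Dnmt1, the maintenance methyltransferase, had 21440 and 18665 normalized counts in cKO replicates 1 and 2, against 21089 and 12959 in control replicates 1 and 2. The groups overlapped, since 3 libraries lay close together and control replicate 2 alone was low, and the control libraries differed 1.63-fold from each other. The means were 20053 ± 1962 in cKO and 17024 ± 5749 in control (SD, n = 2 each), which is 0.28 as a log2 fold change (SE 0.27, 95% interval -0.35 to 0.90). Without control replicate 2 the fold change was -0.08, and without control replicate 1 it was 0.63. Each of these fits left 1 control library, so only the size of the difference is given. The direction of the Dnmt1 difference thus rested on 1 control library.

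Marker lists for other blood and marrow cells also set control replicate 2 apart. All 18 of 18 erythroid markers were in the table and none was at 0 in all libraries. Their summed normalized counts were 83254 and 45252 in the cKO libraries, against 55804 and 176147 in the control libraries. The median log2 fold change of the erythroid markers was -0.95, with 1 above 0 and 17 below, and 0 passed the test. The 14 neutrophil and granulocyte progenitor markers, all present, summed to 375805 and 472353 in cKO and to 598199 and 189954 in control. Dnmt1 was thus lowest in the library with the highest erythroid and the lowest granulocyte sums. The part of these markers, and of the mitochondrial share, in the Dnmt1 value was not tested.

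Uhrf1, which brings DNMT1 to half-methylated DNA, had 12052 and 12259 normalized counts in the cKO libraries, against 14009 and 13439 in the control libraries. Both cKO libraries lay below both control libraries, and replicates agreed to within 1.02-fold in cKO and 1.04-fold in control. The cKO mean was 0.886 of the control mean (12156 ± 147 in cKO, 13724 ± 402 in control, SD, n = 2 each). Its log2 fold change was -0.17 (SE 0.19, 95% interval -0.61 to 0.26), and it stayed between -0.20 and -0.14 whichever library was left out. The fit of limma, which moderates each gene's spread toward that of genes of similar level, gave a Benjamini-Hochberg adjusted p of 0.83.

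**Figure D1:**
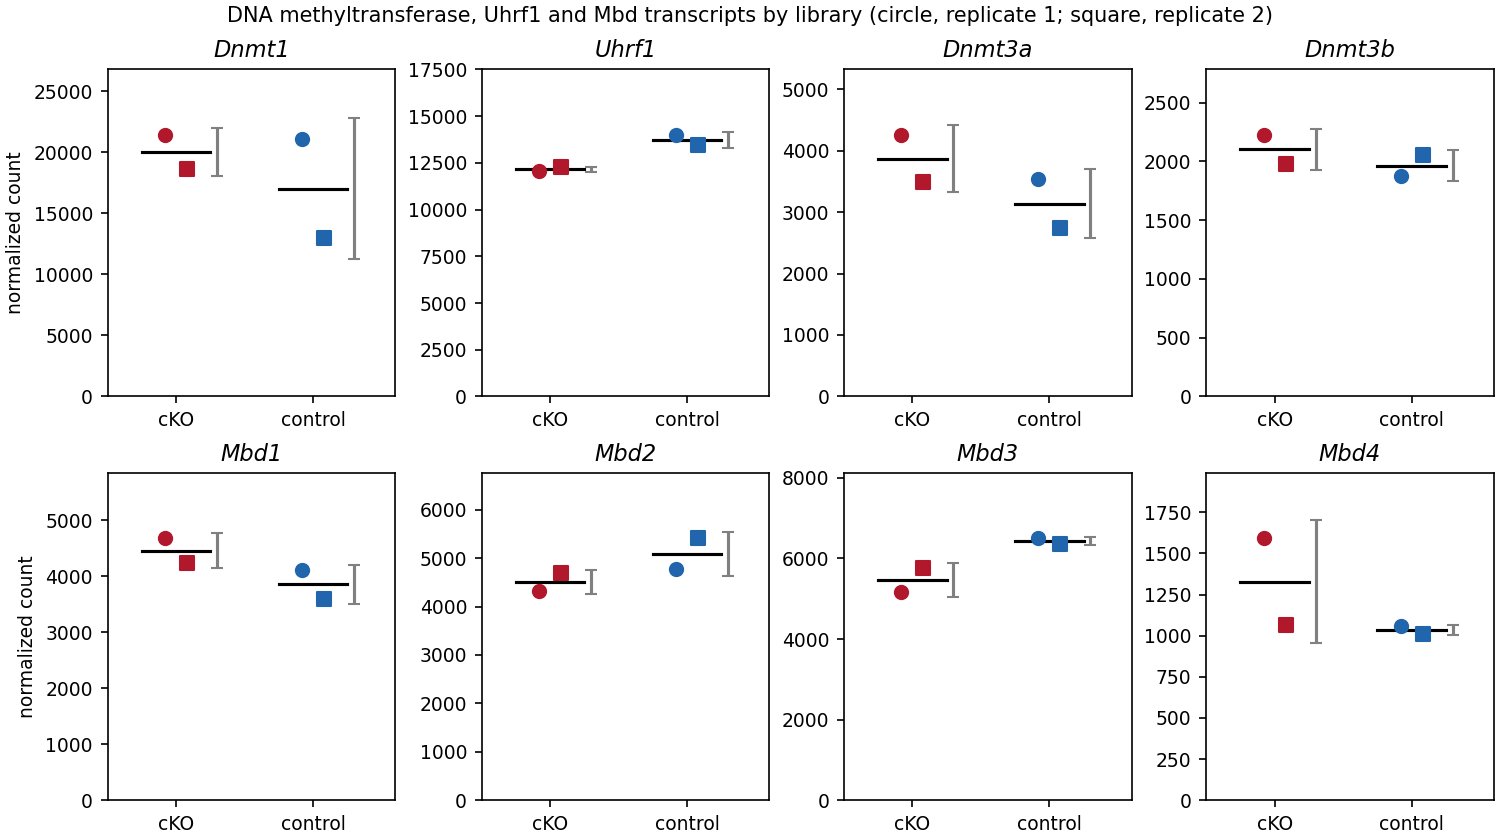
Normalized count of each of the 8 genes in the 2 cKO libraries (red, left) and the 2 control libraries (blue, right), with circles for replicate 1, squares for replicate 2, black bars for the group mean and grey bars for ± 1 SD. Dnmt1 was low in control replicate 2 (12959). Uhrf1, Mbd2 and Mbd3 were lower in both cKO libraries than in both control libraries, and Mbd1 and Mbd4 were higher. As a ratio, the 2 cKO libraries differed most for Mbd4 (1591 and 1062).

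Because Dnmt1 and Uhrf1 work as a pair in S phase, their levels were compared inside each library. The log2 ratio of Dnmt1 to Uhrf1 counts was 0.83 and 0.61 in the cKO libraries, against 0.59 and -0.05 in the control libraries. Control replicate 2 was again the library that differed, with nearly equal counts of both genes. Set against the mean log2 level of 25 S phase genes, such as the Mcm helicase genes and Rrm2, Uhrf1 stood 1.45 and 1.42 higher in the cKO libraries and 1.49 and 1.42 higher in the control libraries. Relative to that S phase mean, the Uhrf1 level therefore lay between 1.42 and 1.49 in all 4 libraries. The Dnmt1 level stood 2.28 and 2.03 above the same mean in the cKO libraries, against 2.08 and 1.36 in the control libraries. Against the mean of 16 genes of G2 and mitosis, Uhrf1 varied more, at 1.09 and 1.33 in the cKO libraries and 1.27 and 1.27 in the control libraries. Dnmt1 stood 1.92 and 1.93 above that mean in the cKO libraries, against 1.86 and 1.22 in the control libraries, so control replicate 2 was the low one on either scale. These ratios are a description of 4 libraries and were not tested.

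**Figure D2:**
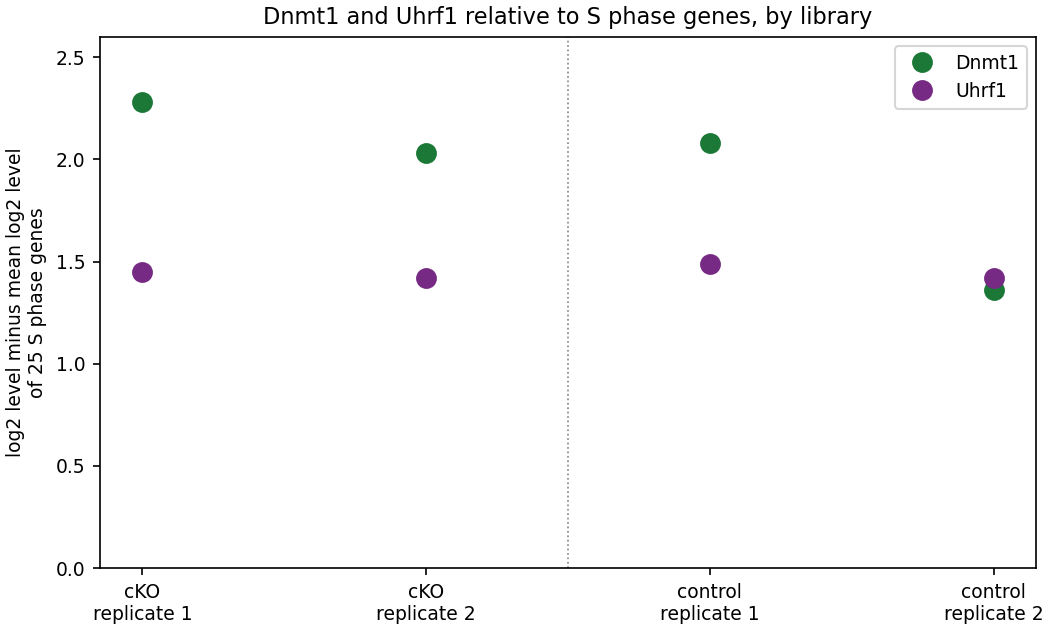
Log2 level of Dnmt1 (green) and Uhrf1 (purple) minus the mean log2 level of 25 S phase genes, in cKO replicates 1 and 2 (left of the dotted line) and control replicates 1 and 2. Uhrf1 stays between 1.42 and 1.49, while Dnmt1 lies at 2.28, 2.03 and 2.08 and at 1.36 in control replicate 2.

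The promoters of this pair are shown because both genes are transcribed with the cell cycle. RefSeq windows on GRCm38.p6, from 250 bases before to 50 after each annotated start, were found for 6 of the 8 genes. They were searched on both strands for the E2F-like letters TTTNNCGC, which read GCGNNAAA on the other strand, E2F proteins being the main transcription factors of S phase genes. Capitals mark matches, and each sequence is written 5′ to 3′ in the direction of the gene.
Uhrf1, chr17:56303087-56303386, plus strand: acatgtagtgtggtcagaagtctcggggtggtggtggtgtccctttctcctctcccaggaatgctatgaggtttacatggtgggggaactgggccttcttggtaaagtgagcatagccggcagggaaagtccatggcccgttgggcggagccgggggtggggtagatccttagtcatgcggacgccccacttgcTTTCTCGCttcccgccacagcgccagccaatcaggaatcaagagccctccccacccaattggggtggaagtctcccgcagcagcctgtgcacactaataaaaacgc
Uhrf1, chr17:56304063-56304362, plus strand: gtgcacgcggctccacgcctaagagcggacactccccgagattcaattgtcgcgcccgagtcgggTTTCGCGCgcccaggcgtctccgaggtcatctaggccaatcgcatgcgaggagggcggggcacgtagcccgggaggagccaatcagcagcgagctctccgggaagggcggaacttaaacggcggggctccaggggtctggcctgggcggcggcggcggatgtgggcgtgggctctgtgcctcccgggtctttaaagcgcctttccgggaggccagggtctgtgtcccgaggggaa
Dnmt1, chr9:20952930-20953229, minus strand: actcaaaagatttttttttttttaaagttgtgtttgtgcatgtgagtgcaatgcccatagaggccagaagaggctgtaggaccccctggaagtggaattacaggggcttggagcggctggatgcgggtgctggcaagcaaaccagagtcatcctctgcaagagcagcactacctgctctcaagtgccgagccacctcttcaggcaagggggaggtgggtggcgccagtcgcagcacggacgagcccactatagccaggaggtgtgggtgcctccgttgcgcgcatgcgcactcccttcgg
Dnmt1, chr9:20952823-20952852, minus strand, 30 bases: gtttccgcgcGCGCGAAAAAgccggggtct

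Positions are counted from each annotated start, with negative ones before it. Both Uhrf1 windows held a match, TTTCTCGC at -56 from the first start and TTTCGCGC at -185 from the second. Of the 3 Dnmt1 windows 1 held matches. In it GCGCGAAA and GCGAAAAA share 6 bases, begin at -219 and -217 from the start at base 20952623, and are the capitals of the 30-base stretch, which lies between that start and the one at base 20952979, while TTTGGCGC begins at 34 after that start. The Dnmt1 window printed in full, around the start at 20952979, held none. The 6 windows of Dnmt3a, Dnmt3b, Mbd3 and Mbd4 held 0 matches, and among all 32851 RefSeq windows 5.17% held one. The letters searched for hold a CpG themselves. The share of 5.17% was not taken over windows of like CpG content, so it does not say how rare these matches are. CpG sites, the substrate of these enzymes, numbered 12 and 33 in the Uhrf1 windows, against a median of 7 over all windows. The 3 Dnmt1 windows held 2, 12 and 33, of which the one printed in full had 12 and the one with matches 33. The windows of the other 4 genes held 18 to 47. A match is a stretch of letters and not a shown binding site, and the expression data do not measure methylation at any of these sites.

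Dnmt3a, the de novo methyltransferase, had 4259 and 3481 normalized counts in the cKO libraries, against 3537 and 2741 in the control libraries. The groups overlapped by a narrow margin, with cKO replicate 2 just under control replicate 1. The mean was 23.3% higher in cKO (3870 ± 550 in cKO, 3139 ± 563 in control, SD, n = 2 each). Its log2 fold change was 0.31 (SE 0.21, 95% interval -0.19 to 0.80), with 0.12 when control replicate 2 was left out and 0.49 when control replicate 1 was. An antisense transcript, Dnmt3aos, covers 0.799% of the Dnmt3a exon length, and the sources used here do not say whether counting used strand.

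Dnmt3b, the second de novo enzyme, had 2227 and 1977 normalized counts in the cKO libraries, against 1872 and 2057 in the control libraries. Libraries of both groups alternated in rank, and the means were 2102 ± 177 in cKO and 1965 ± 131 in control (SD, n = 2 each). The log2 fold change was 0.10 (SE 0.19, 95% interval -0.35 to 0.54), the smallest in size of the 8. It was 0.01 without cKO replicate 1 and 0.03 without control replicate 1, against 0.18 and 0.16 without the other two libraries, cKO replicate 2 and control replicate 2. Within libraries the log2 ratio of Dnmt3a to Dnmt3b counts was 0.94 and 0.82 in cKO, against 0.92 and 0.41 in control, so control replicate 2 again stood apart.

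Mbd2 and Mbd3, the alternative MBD subunits of NuRD, both had lower means in cKO. Mbd2 had 4323 and 4684 normalized counts in the cKO libraries, against 4765 and 5406 in the control libraries, with no overlap between the groups. Its log2 fold change was -0.17 (SE 0.18, 95% interval -0.60 to 0.25), with -0.26 when control replicate 1 and -0.08 when control replicate 2 was left out. Mbd3, whose mammalian protein binds methylated CpG weakly if at all, had 5176 and 5772 in cKO, against 6497 and 6361 in control, also with no overlap. Its cKO mean was 0.851 of the control mean (5474 ± 421 in cKO, 6429 ± 96.3 in control, SD, n = 2 each), and the log2 fold change was -0.23 (SE 0.18, 95% interval -0.65 to 0.19). The log2 ratio of Mbd2 to Mbd3 counts was -0.26 and -0.30 in cKO and -0.45 and -0.23 in control. The balance of the pair in the cKO libraries lay inside the range of the control libraries.

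Mbd1, a repressor that binds methylated CpG, had 4678 and 4240 normalized counts in the cKO libraries, against 4106 and 3604 in the control libraries. Both cKO libraries lay above both control libraries, and the log2 fold change was 0.21 (SE 0.19, 95% interval -0.22 to 0.64), or 0.12 to 0.31 with a library left out, lowest without control replicate 2. Mbd4, the mismatch glycosylase, had 1591 and 1062 in cKO, against 1057 and 1013 in control. Only cKO replicate 1 was clearly higher, while cKO replicate 2 exceeded control replicate 1 by a few counts. Mbd4 had the highest fold change of the 8, 0.33 on the log2 scale (SE 0.25, 95% interval -0.25 to 0.91), and it was 0.04 without cKO replicate 1 and 0.62 without cKO replicate 2. The antisense transcript Gm44206 covers 5% of the Mbd4 exon length, so reads of that transcript and of Mbd4 cannot be told apart there without strand.

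Across the 8 genes, 5 had a fold change above 0 (Dnmt1, Dnmt3a, Dnmt3b, Mbd1 and Mbd4), as did 50.8% of all genes tested, and 3 below 0 (Uhrf1, Mbd2 and Mbd3), with a median of 0.15, against a median of 0.01 over all genes tested. In 5 of 8 genes the groups did not overlap, with cKO higher for Mbd1 and Mbd4 (19.2% of all genes tested) and cKO lower for Uhrf1, Mbd2 and Mbd3 (19.5% of all genes tested). In either direction 38.7% of all genes tested had groups that did not overlap, and nothing is read from 5 of 8. Marker sums of some other cell types also parted the groups. The shares above are over single genes, so single markers that did not overlap are counted too. With cKO higher and lower, they numbered 16 and 0 for T, NK and innate lymphoid cells. Counts were 7 and 0 for B and plasma cells, 6 and 0 for stem and multipotent progenitors, and 4 and 0 for endothelium. For stromal and osteolineage markers they were 2 and 6. Monocyte and granulocyte lists each had 2 and 2, and the erythroid list 0 and 0. The 18 markers of T, NK and innate lymphoid cells, all present, summed to 15672 and 13987 normalized counts in cKO and to 11367 and 8837 in control. The 12 stromal and osteolineage markers, all present, summed to 14363 and 15800 in cKO and to 27177 and 25681 in control, and the 14 stem and multipotent progenitor markers to 48456 and 46732 in cKO and to 38951 and 37681 in control. Of 16 B cell and plasma cell markers 15 were measured, and they summed to 77984 and 87516 in cKO and to 54852 and 24472 in control. The 8 endothelial markers, all present, summed to 11942 and 10469 in cKO and to 8797 and 9751 in control. The 10 monocyte and macrophage markers, all present, summed to 55519 and 67884 in cKO and to 88778 and 41238 in control. Those sums overlap, as the erythroid and granulocyte sums above do. A sum follows its most abundant markers, so list medians of the log2 fold change are given too. They were 1.62 for T, NK and innate lymphoid markers (17 above 0, 1 below) and -0.76 for stromal and osteolineage markers (3 above, 9 below). For B cell and plasma cell markers the median was 0.62 (14 above, 1 below), and for stem and multipotent progenitor markers 0.30 (11 above, 3 below). It was 0.42 for endothelial markers (6 above, 2 below) and 0.18 for monocyte and macrophage markers (6 above, 4 below). None of these markers passed the test or was at 0 in all libraries, and their part in the members' values was not tested. The 3 genes with lower cKO values kept their sign with each library left out, as did Dnmt3a, Dnmt3b, Mbd1 and Mbd4, and Dnmt1 alone changed sign.

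**Figure D3:**
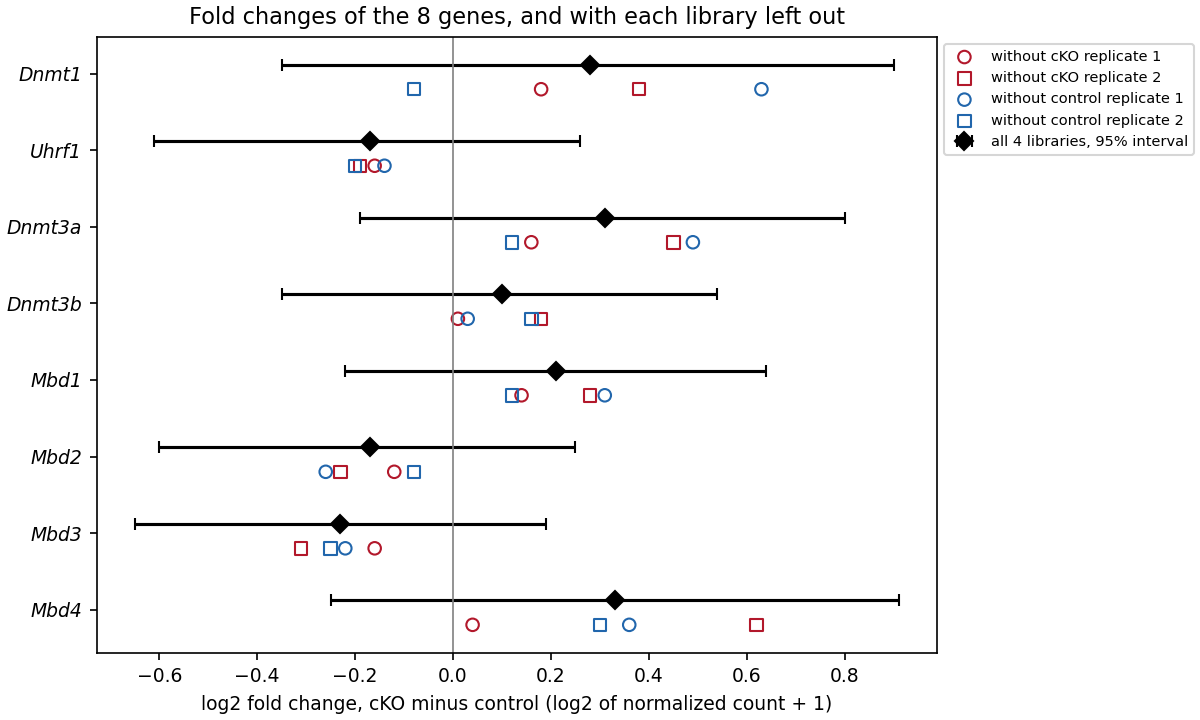
Log2 fold change, cKO minus control, of each of the 8 genes from all 4 libraries (black diamonds with 95% intervals) and with 1 library left out (open symbols, red for a cKO and blue for a control library, circles for replicate 1 and squares for replicate 2). Every interval includes 0, and Dnmt1 is the gene whose value crosses 0, at -0.08 without control replicate 2.

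To compare the levels of different genes, normalized counts were divided by exon length. Per kilobase of exon, Mbd3 (2755 in cKO, 3235 in control), Uhrf1 (2854 in cKO, 3222 in control) and Dnmt1 (2718 in cKO, 2308 in control) were the most abundant, as group means. The libraries did not hold one order among these 3 genes. Mbd2 came next in all 4 libraries, with means of 1401 in cKO and 1582 in control, followed by Mbd1 (665 in cKO, 575 in control) and Dnmt3b (412 in cKO, 385 in control). Mbd4 (251 in cKO, 196 in control) and Dnmt3a (233 in cKO, 189 in control) were lowest, and their order differed between libraries. Both de novo enzymes thus lay below Dnmt1 in each library. Lengths are the union of annotated exons, which for Dnmt3a spans 16642 bases. With the length of the longest principal transcript instead, an alternative added after seeing the data, Dnmt1 ranked first in 3 libraries and below Mbd3, Uhrf1 and Mbd2 in control replicate 2, and Dnmt3a still lay below Dnmt3b in all 4.

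**Figure D4:**
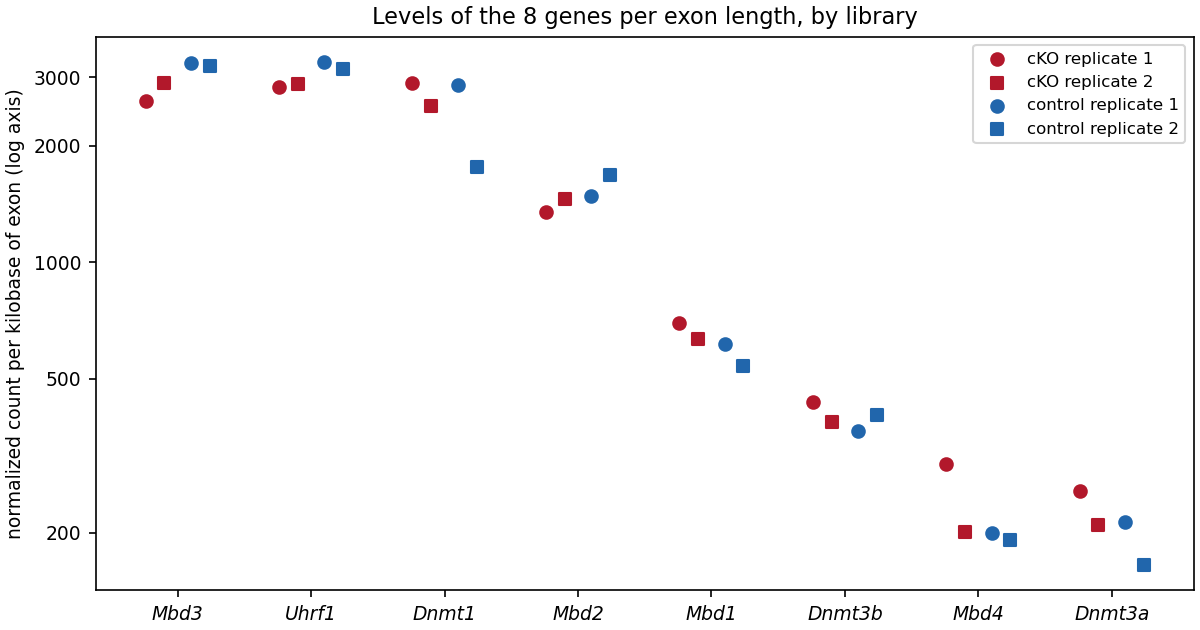
Normalized count per kilobase of exon for the 8 genes on a log axis, in cKO libraries (red) and control libraries (blue), with circles for replicate 1 and squares for replicate 2. Mbd3, Uhrf1 and Dnmt1 lie highest, with Dnmt1 in control replicate 2 (1757) the lowest of their values, and Mbd4 and Dnmt3a lie lowest.

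Other readers of methylated CpG and MBD relatives gave 9 of 10 fold changes above 0, with a median of 0.26, and 0 passed the test in either direction. Zbtb4, a zinc finger reader of methylated CpG, had 600 and 425 normalized counts in cKO, against 297 and 341 in control (log2 fold change 0.66, SE 0.29). Zbtb33, which encodes the reader Kaiso, had 1798 and 1399 in cKO, against 1288 and 969 in control (0.51, SE 0.24). Zbtb33 lies on the X chromosome, so for it genotype and sex are directly confounded. Baz2b, a bromodomain gene, had a fold change of 0.34 (SE 0.22). Of the remaining MBD genes, Mbd5 had 772 and 595 in cKO against 562 and 581 in control, and Mbd6 had 4309 and 3858 in cKO against 4572 and 5237 in control. The median of this list was 0.05 without cKO replicate 1.

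Of 15 measured partners of the writers, 6 had positive and 9 negative fold changes. Their median was -0.13, and 0 passed the test. Hells, a remodeller needed for DNA methylation, had 5307 and 5504 normalized counts in cKO, against 5241 and 4299 in control. Cdca7, which activates Hells, had 9101 and 11314 in cKO, against 12010 and 13722 in control (log2 fold change -0.34, SE 0.21). Setd2 (0.39, SE 0.22) and Nsd1 (0.24, SE 0.19), histone H3 lysine 36 methyltransferases whose marks guide the de novo enzymes, had higher means in cKO. Uhrf2, the Uhrf1 paralog, had 3648 and 3167 in cKO, against 2692 and 3809 in control, which overlap. Ehmt2, a histone H3 lysine 9 methyltransferase, had a fold change of -0.21 (SE 0.18).

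Among 14 measured NuRD genes, 11 had positive and 3 negative fold changes. Their median was 0.06, and 0 passed the test. The remodelling ATPase gene Chd3 had 5941 and 4194 normalized counts in cKO, against 3374 and 3431 in control (log2 fold change 0.55, SE 0.22), and its paralog Chd4 had 23468 and 21022 in cKO, against 20904 and 17419 in control. Gatad2b, which links MBD2 or MBD3 to the ATPase, had 3981 and 3370 in cKO, against 3264 and 2307 in control. Their values lay in the opposite direction to those of Mbd2 and Mbd3, and no difference between the genes was tested. Cdk2ap1, a small subunit, had a fold change of -0.25 (SE 0.20).

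Of the 11 base excision repair genes that act with or beside Mbd4, 4 had positive and 7 negative fold changes. Their median was -0.15, and 0 passed the test. Xrcc1, a repair scaffold, had 2021 and 2102 normalized counts in cKO, against 2291 and 3020 in control (log2 fold change -0.35, SE 0.21). Smug1, a uracil glycosylase, had 525 and 499 in cKO, against 453 and 357 in control. Parp1 (13648 and 11977 in cKO, 12823 and 8005 in control) and Lig3, the ligase partner of Xrcc1 (2113 and 1724 in cKO, 1980 and 1082 in control), were both lowest in control replicate 2, as Dnmt1 was.

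Genes that supply S-adenosylmethionine, the methyl donor, split into 5 with positive and 7 with negative fold changes, of 12. Their median was -0.04, and 0 passed the test. Mtr, methionine synthase, had 5383 and 4492 normalized counts in cKO, against 3815 and 3123 in control (log2 fold change 0.51, SE 0.20), and Mtrr, which keeps that enzyme active, had 377 and 742 in cKO, against 809 and 872 in control (-0.67, SE 0.34). Shmt2, an enzyme of folate metabolism, had a fold change of -0.33 (SE 0.19). The TET genes Tet1 (1544 and 1065 in cKO, 815 and 870 in control) and Tet2 (2708 and 1870 in cKO, 2086 and 1977 in control) did not pass either, with 2 of the 3 Tet fold changes above 0 and a median of 0.15.

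Genes of the cell cycle were measured because Dnmt1 and Uhrf1 follow it. Of 25 S phase genes 3 had a fold change above 0 and 22 below, and their median was -0.09. Of 16 genes of G2 and mitosis, 5 were above 0 and 11 below, and their median was -0.10. In neither list did a gene pass the test. Rrm2, a subunit of ribonucleotide reductase, had 7838 and 7422 normalized counts in cKO, against 10312 and 11103 in control (log2 fold change -0.49, SE 0.18), and the cyclin gene Ccne1 had 1567 and 1522 in cKO, against 1751 and 3396 in control. E2f1, Gins1, Plk1, Ccnb2, Ccna2 and Cdk1 had fold changes between -0.41 and -0.29, each with both cKO libraries below both control libraries. They were named for having the smallest p-values of their lists, so this separation partly follows from that choice. Both cKO libraries lay below both control libraries for 13 of 25 S phase genes and 7 of 16 genes of G2 and mitosis. The share over all genes tested was 19.5%. The reverse held for 1 S phase gene and 0 genes of G2 and mitosis. The Uhrf1 value of -0.17 has the sign of most genes in both lists, and the Dnmt1 value has not. Mki67, a marker of cycling cells, had 32357 and 20824 in cKO, against 23446 and 33132 in control, which overlap. A list of 18 germline genes described as silenced by promoter methylation in somatic cells had 3 in the table. Their median fold change was -0.52, and 0 passed the test. Tdrkh had 246 and 295 normalized counts in cKO, against 388 and 386 in control. It was thus not silent in these libraries, and its fold change of -0.52 is the list median, which therefore does not report on silenced promoters. Piwil2 had 16.3 and 18.4 in cKO, against 33.2 and 27.1 in control, and Ddx4 had 70 and 82.7 in cKO, against 48 and 147 in control. All 3 encode proteins of germ cells.

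For each of the 8 genes, the genes with the most similar pattern were taken from 11808 candidates by the root mean square difference of centred log2 levels over the 4 libraries. Papss2 (0.015) and Slc26a2 (0.017) were nearest to Dnmt1, and Elf1 (0.0083) and Zfp687 (0.020) to Dnmt3a. Zscan26 (0.011) and Rbbp6 (0.012) were nearest to Dnmt3b. Nuf2, a kinetochore gene (0.0063), and Ankrd13c (0.012) were nearest to Uhrf1. Uba3 (0.010) and Tbc1d23 (0.011) were nearest to Mbd1, Sec22b (0.0046) and Sox12 (0.0053) to Mbd2, Ndufb6 (0.0097) and Cdc42 (0.013) to Mbd3, and Zfp329 (0.0097) and Nipbl (0.029) to Mbd4. Papss2, for instance, had 2139 and 1862 normalized counts in cKO, against 2153 and 1291 in control, the profile of Dnmt1 at a lower count. With 4 libraries this likeness is a description only.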

How the data were processed

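Lin– bone marrow RNA was sequenced from 4 mice, 1 library each, 2 per genotype. Per the file headers, the authors deposited a signal for each gene, namely reads scaled by the size factor of the library. DESeq2, featureCounts, SAMtools, STAR 2.7.9a and Trim Galore 0.6.7, with build mm39, are the tools listed in the submitters' processing notes. Their settings, the annotation and strand use are not stated. The columns named as wild type were taken as the control samples by group and number. Within 0.1 read, 100% of values were whole multiples of 1 read, so whole reads were recovered. No gene had fewer than 41 reads over the 4 libraries, so low genes had been removed before deposit. The members had between 924 and 22842 reads per library.

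The test was limma 3.58.1 in R 4.3.3, two-sided, on log2(normalized count + 1). It used empirical Bayes moderation (trended) on the 16598 genes whose mean was at least 10, and Benjamini-Hochberg adjustment over all of them. It had 2 residual and 5.48 prior degrees of freedom. All 8 members passed the filter. p-values rest on the spread between these mice. Each gene's spread was moderated toward that of genes of similar level, so p-values do not measure its own spread alone. No 2 replicates were alike within counting noise, so none was counted as a repeat of another (chi-square per degree of freedom in cKO 37.7 and in control 293); separate mice would differ so in any case. The steps were tested on simulated data. Alternatives were other pseudocounts, filters, scalings and variance models, a replicate block, leaving out single libraries or the X and Y genes, edgeR 4.0.16 (quasi-likelihood, 12 genes called on the recovered reads) and DESeq2 1.42.0. The members, lists and the rule for named genes (the members, the Tet genes, Uhrf2, Hells, Mki67, Xist, up to 4 genes per list by p-value and the 2 most similar genes per member) were chosen with earlier results of these data known. Mbd5, Mbd6, the Y genes, Cd34 and Flt3 were named besides, and a few genes under that rule are left unreported. Exon lengths, overlaps and chromosomes came from GENCODE M21 (GRCm38) by symbol, matched for 97.3% of genes, a build that differs from the authors'. Promoter sequences are from RefSeq on GRCm38.p6.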

Additional observations from a re-analysis of the deposited data

How the results depend on the processing

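None of the 8 genes was called under any of the 16 alternatives. Dnmt1 turned to -0.08 without control replicate 2, and with each library left out it ran from -0.08 to 0.63. No other member changed sign under any alternative. Apart from left-out libraries, Dnmt1 ran from 0.24 to 0.34, Dnmt3a from 0.30 to 0.35, Mbd4 from 0.33 to 0.37 and Uhrf1 from -0.18 to -0.14. With a library left out, Dnmt3b ran from 0.01 to 0.18, Mbd1 from 0.12 to 0.31, Mbd2 from -0.26 to -0.08 and Mbd3 from -0.31 to -0.16.

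Of all genes, 12 were called, 5 higher and 7 lower. Higher calls numbered 2 with a mean of at least 50, with quantile normalization and with no trend. With X and Y genes left out 2 were called, 1 higher and 1 lower, and DESeq2 called 107, 71 higher and 36 lower. Leaving out a library gave 18 to 392 calls, 4 to 231 higher and 8 to 161 lower, the most without control replicate 1. The same-number correlation of deviations was -0.0742, so the numbers were not taken as pairs, and with the replicate number as a block 8 genes were called, 3 higher, and no member.

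Among list medians, germline genes had -0.52, against -0.33 where the mean had to reach 50. With quantile normalization the writers' partners had -0.06 and S phase genes -0.06. With each library left out the medians ran from 0.05 to 0.47 for other readers, -0.16 to -0.01 for partners, -0.01 to 0.18 for NuRD, -0.17 to -0.08 for base excision repair, -0.08 to 0.12 for methyl donor supply, -0.12 to 0.42 for the Tet genes, -0.65 to -0.39 for germline genes, -0.18 to -0.11 for S phase and -0.25 to -0.01 for G2 and mitosis. The causes were not tested. With 2 mice per group the members' 95% intervals spanned 0.841 to 1.26 log2 units, and all included 0.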
